A study of Homo sapiens with 12 samples.

Results

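The peroxiredoxins and the thioredoxin system are described here through 10 genes, PRDX1, PRDX2, PRDX3, PRDX4, PRDX5, PRDX6, TXN, TXN2, TXNRD1 and SRXN1, of the 58174 genes in each table. They were chosen by symbol, with earlier results of the same libraries known, and all 10 had a row in both cell lines. Peroxiredoxins are thiol enzymes that break down hydrogen peroxide and organic peroxides. In doing so their reactive cysteine is oxidised, and in most of them thioredoxin (TXN in the cytosol and nucleus, TXN2 in mitochondria) returns it to the working state. Thioredoxin is recharged with electrons from NADPH by thioredoxin reductase (TXNRD1 in the cytosol), a selenoprotein, and peroxiredoxins that have been over-oxidised to the sulfinic form are repaired by sulfiredoxin (SRXN1). In tumour cells these enzymes set how much peroxide a cell tolerates, and several of the genes are known targets of the transcription factor NRF2.

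The mRNA-seq data come from U-87 MG (U87) and U-118 MG (U118), established human glioblastoma cell lines. The sensitive group of each line holds cells that were not selected with temozolomide (TMZ), an alkylating drug used against glioblastoma, and the resistant group holds cells obtained under continuous exposure to TMZ at 50 μM. According to the study's methods the starting cells were sorted as CD133-CD15- and grown in serum with BMP2, and mRNA sequencing compared control with aggregation cells. In its results the aggregates grew out of a small subset after weeks of treatment and a further period after it. The resistant libraries are read here as these aggregates, which the methods do not state. On that reading each resistant group descends from a small surviving fraction of its line. Each of the 4 groups had 3 libraries, 12 in all. Nothing states that the 3 libraries came from separate cultures, so the p-values measure the spread between these libraries, which may be technical. Values are TPM, a level scaled to transcript length that adds up to the same total in every library. TPM keeps no read number, so the depth is unknown and no counting interval is given.

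Several facts of the libraries touch every result that follows. The libraries of the resistant U118 cells were more like U87 than like sensitive U118: the Spearman correlation over genes was 0.866 to 0.875 with the U87 libraries, 0.814 to 0.831 with sensitive U118, and 0.902 to 0.916 among themselves. PDGFRA, a growth factor receptor, lay between 71.8 and 88.3 TPM in sensitive U118, between 0.0716 and 0.105 TPM in resistant U118 and between 0 and 0.311 TPM in U87. THY1, one of the fibroblast genes below, instead set resistant U118 apart from U87. It lay between 51.2 and 104 TPM in resistant U118, 213 and 459 TPM in sensitive U118, and 0 and 0.127 TPM in U87. Both genes were named after their values were seen. Whether the resistant U118 libraries hold selected U118 cells or cells of another origin was not tested, and the U118 contrast is given with this limit, whereas the U87 contrast does not use them. Mitochondrially encoded genes took 12.9% to 16.9% of TPM in sensitive and 22.2% to 23.7% in resistant U87, and 7.42% to 19.7% and 13.2% to 29.9% in U118. Resistant U118 replicate 1 stood apart within its group, with 13.2% from these genes and 15193 genes at 1 TPM or more, against 13270 and 13545 in the others. Of the 10 glioma and astrocyte markers, VIM and CD44 were high everywhere, GFAP stayed under 1 TPM and AQP4 was listed at 0. Of the immune markers AIF1 was listed at 0 and PTPRC did not pass 0.0689 TPM, while CD68 lay between 170 and 379 TPM. The 8 fibroblast genes summed to 235 to 237 TPM in sensitive and 441 to 524 in resistant U87, and to 1301 to 1684 and 291 to 658 in U118. The part of these shifts in the results below was not tested.

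PRDX2, the cytosolic peroxiredoxin that is most abundant in red cells, was the gene of the system with the largest change in both lines. In sensitive U87 its level was 41.0, 35.0 and 40.9 TPM (39.0 ± 3.44, SD, n = 3), and in resistant U87 it was 2.72, 2.57 and 2.11 TPM (2.47 ± 0.320, SD, n = 3). The resistant libraries all lay far below the sensitive ones. The mean was 15.8-fold lower, a log2 fold change of TPM + 1 of -3.53 with a standard error (SE) of 0.14. In sensitive U118 the level was 217, 316 and 171 TPM (234.6 ± 74.2, SD, n = 3), and in resistant U118 it was 7.04, 3.19 and 2.28 TPM (4.17 ± 2.53, SD, n = 3). Here too the groups did not overlap, and the mean was 56.3-fold lower, with a log2 fold change of -5.57 (SE 0.36). The starting levels were far apart and the end levels were close: both resistant groups stood between 2.11 and 7.04 TPM. The values of the lines came in 2 separate tables, and levels were not tested between the lines. Among the genes listed above 0 in a library, PRDX2 lay above 82.9% to 85.3% of them in sensitive U87 and above 49.3% to 52.6% in resistant U87, and above 97.1% to 98.3% and 53.9% to 65.5% in U118. In bulk RNA, fewer cells with PRDX2 mRNA and less of it per cell cannot be told apart. Without resistant U118 replicate 1 the log2 fold change in that line was -5.94, and over all refits that left out 1 library U87 stayed between -3.60 and -3.45 and U118 between -5.94 and -5.30.

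None of the 6 tested genes nearest to PRDX2 lay lower by a comparable amount. PRDX2 lies on chromosome 19 at chr19:12796820-12801859 (GRCh38, minus strand), inside the annotated span of HOOK2, a microtubule linker gene on the same strand. HOOK2 was at 13.9 ± 1.17 and 11.3 ± 0.592 TPM in sensitive and resistant U87 (log2 fold change -0.27, adjusted p = 0.119 by limma), and at 23.0 ± 3.15 and 12.2 ± 4.36 TPM in U118 (-0.90, adjusted p = 0.0228; each SD with n = 3). In U118 HOOK2 did not reach the 2-fold limit for a call, but did without sensitive replicate 3 (-1.02) or resistant replicate 1 (-1.16). JUNB, a transcription factor gene 3505 bases away, lay higher in the resistant cells. It was at 31.5 ± 1.01 TPM in sensitive and 49.6 ± 0.649 TPM in resistant U87 (log2 fold change 0.64, adjusted p = 0.00115) and at 67.4 ± 4.28 and 118.5 ± 21.2 TPM in U118 (0.79, adjusted p = 0.0131; 1.35 and called after median-ratio scaling). RNASEH2A, a ribonuclease subunit gene 4697 bases away on the opposite strand, was called lower in U118, from 389.7 ± 63.9 to 183 ± 7.44 TPM (log2 fold change -1.07, adjusted p = 0.0028), but not under median-ratio scaling (-0.51) or without sensitive U118 replicate 2 (-0.99). In U87 it had a log2 fold change of -0.37. TRIR, GET3 and MAST1, farther out, had log2 fold changes between -0.30 and 0.67 in U87 and between -0.44 and 0.19 in U118, and none was called. An antisense transcript that covers PRDX2 stayed between 0 and 0.994 TPM. The library strand is not stated, so reads of PRDX2, HOOK2 and this antisense gene may have been split between them. The 4 PRDX2 pseudogenes summed to at most 0.399 TPM in any library.

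The promoters of PRDX2 and SRXN1 are shown because these are the members that lay lower, by more than 2-fold, in both resistant lines. They come from RefSeq on GRCh38.p14 as 300 bases around the start site, 5′ to 3′ on the gene's strand, with every CpG in capitals. PRDX2 is at chr19:12801751-12802050 (minus strand) and SRXN1 at chr20:653151-653450 (minus strand).
PRDX2 promoter: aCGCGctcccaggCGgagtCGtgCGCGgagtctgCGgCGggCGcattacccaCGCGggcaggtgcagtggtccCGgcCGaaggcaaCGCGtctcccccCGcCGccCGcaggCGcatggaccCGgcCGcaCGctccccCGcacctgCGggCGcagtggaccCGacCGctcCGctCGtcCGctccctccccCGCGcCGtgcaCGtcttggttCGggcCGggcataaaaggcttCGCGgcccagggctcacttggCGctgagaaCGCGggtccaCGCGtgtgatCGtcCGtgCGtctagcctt
SRXN1 promoter: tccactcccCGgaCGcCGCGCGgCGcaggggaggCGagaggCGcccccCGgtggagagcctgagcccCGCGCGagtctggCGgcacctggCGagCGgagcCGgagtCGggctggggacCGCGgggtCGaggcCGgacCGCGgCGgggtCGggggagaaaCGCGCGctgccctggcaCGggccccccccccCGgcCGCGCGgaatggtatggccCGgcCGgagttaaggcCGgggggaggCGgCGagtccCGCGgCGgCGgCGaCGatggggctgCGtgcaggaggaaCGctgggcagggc
Both are very rich in CpG, the dinucleotide that can carry DNA methylation. Each held 46 CpG, more than 97.1% of the 35116 RefSeq promoters of the same length, whose median was 14. The 7 members with a sequence had 9 promoters, and the other 7 of these held 12 to 35. PRDX1, PRDX6 and TXN2 had none in the table. Methylation was not measured in these libraries.

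The letters of 2 motifs were searched on both strands in the same windows. The core of the hypoxia response element, ACGTG, was in 21.4% of all promoters and in those of PRDX2 (at -52 from the start site), PRDX3 and PRDX4. The antioxidant response element bound by NRF2, written TGACNNNGC, was in 13.3% of all promoters and, among the members, only in TXNRD1, with 2 matches in one promoter and 1 in the other. TXNRD1 is shown for this reason with the matches in capitals, from chr12:104215529-104215828 and chr12:104286782-104287081 (both plus strand).
TXNRD1 promoter, upstream start: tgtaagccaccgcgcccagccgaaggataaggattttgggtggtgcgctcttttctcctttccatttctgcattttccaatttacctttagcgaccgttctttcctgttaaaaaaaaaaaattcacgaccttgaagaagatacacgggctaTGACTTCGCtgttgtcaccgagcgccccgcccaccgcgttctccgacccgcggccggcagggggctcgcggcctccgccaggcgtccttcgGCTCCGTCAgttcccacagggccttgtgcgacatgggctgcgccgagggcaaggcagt
TXNRD1 promoter, downstream start: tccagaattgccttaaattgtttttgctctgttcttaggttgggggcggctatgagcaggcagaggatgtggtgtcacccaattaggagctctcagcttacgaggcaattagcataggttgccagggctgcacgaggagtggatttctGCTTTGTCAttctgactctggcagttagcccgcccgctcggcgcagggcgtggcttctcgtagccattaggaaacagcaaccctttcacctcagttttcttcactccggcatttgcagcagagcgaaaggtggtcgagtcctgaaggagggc
A match is a run of letters and not a measured binding site.

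SRXN1, which repairs over-oxidised peroxiredoxins, was the other member that lay lower by more than 2-fold in both lines. Its level was 76.4, 87.1 and 86.7 TPM in sensitive U87 (83.4 ± 6.04, SD, n = 3) and 34.1, 33.6 and 35.8 TPM in resistant U87 (34.5 ± 1.16, SD, n = 3). The mean was 2.42-fold lower, with a log2 fold change of -1.25 (SE 0.09). In U118 it went from 169, 165 and 121 TPM (151.5 ± 26.8, SD, n = 3) to 86.3, 49.9 and 55.4 TPM (63.9 ± 19.6, SD, n = 3), which is 2.37-fold lower and a log2 fold change of -1.26 (SE 0.26). The groups did not overlap in either line, and the size was nearly the same in both. In contrast to PRDX2, this difference sat close to the 2-fold limit: under median-ratio scaling of the libraries it was -0.99 in U87 and -0.70 in U118, short of it.

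The count of members with a call is set in part by how they were chosen, and is given beside the share of all genes. A gene was called where limma gave an adjusted p below 0.05 and the groups differed by 1 or more on the log2 scale, which is 2-fold. In U87 2 of 10 members were called, both lower (PRDX2 and SRXN1), where 10.8% of 13845 genes were called in either direction, 3.03% higher and 7.79% lower. In U118 2 of 10 were called, the same genes and both lower, where 35.3% of 15527 genes were called, 8.64% higher and 26.6% lower. No member was called higher in either line by limma. At an unadjusted p under 0.05 each line had 1 member with a positive fold change. Those with a negative fold change numbered 4 for U87 and 2 for U118. The share of all genes at that looser threshold is not given, so these numbers have no background to be read against. PRDX2 and SRXN1 were among the reasons for describing the system, so these counts are a description and no p is given for a member.

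The scale on which TPM is read matters for the remaining members, whose differences were small. Over all genes tested the median change was -0.24 in U87 and -0.52 in U118 (log2), so a gene that did not move in TPM stood above the typical gene. Median-ratio scaling, which brings these medians to -0.01 and -0.02, raised the share of higher genes among all calls in U87 from 28% to 55% and in U118 from 24.5% to 54.1%. The median of the 10 members was -0.31 in U87, near that of all genes, and -0.13 in U118, above it. Under this scaling PRDX2 was still called lower, at -3.30 in U87 and -5.08 in U118, SRXN1 was called in neither line, and PRDX5 (1.44) and TXNRD1 (1.02) were called higher in U118.

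PRDX1 and PRDX5 carried most of the peroxiredoxin mRNA. PRDX1, a cytosolic and nuclear peroxidase, was at 663.9, 794 and 1017 TPM in sensitive U87 (825.0 ± 179, SD, n = 3) and at 564.7, 711 and 579 TPM in resistant U87 (618 ± 80.8, SD, n = 3). These groups overlapped, with a log2 fold change of -0.40 (SE 0.17), or -0.24 without sensitive replicate 3. In U118 it was at 786, 659 and 557 TPM (667 ± 115, SD, n = 3) and then at 1035, 608 and 481 TPM (708 ± 290.5, SD, n = 3), where replicate 1 of the resistant group spread the values over more than the whole sensitive range. The log2 fold change there was 0.02 (SE 0.31), and -0.29 without that library.

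PRDX5, a peroxidase found in mitochondria, peroxisomes and cytosol, was steady in U87 and higher in resistant U118. It was at 749, 719 and 688 TPM in sensitive U87 (719 ± 30.7, SD, n = 3) and at 757, 748 and 718 TPM in resistant U87 (741 ± 20.5, SD, n = 3), with a log2 fold change of 0.04 (SE 0.06). In U118 it was at 412, 423 and 199 TPM in the sensitive cells (345 ± 126, SD, n = 3) and at 617, 602 and 585 TPM in the resistant ones (601 ± 16.0, SD, n = 3). The U118 groups did not overlap, and the mean was 1.75-fold higher, with a log2 fold change of 0.88 (SE 0.30). Sensitive replicate 3 had the lowest level, and mitochondrially encoded genes took 19.7% of its TPM against 7.42% and 8.55% in the other sensitive U118 libraries; the part of this in the PRDX5 level was not tested. Without it the log2 fold change was 0.53, and without sensitive replicate 1 or 2 it was 1.05 or 1.07 and the gene was called higher.

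PRDX3, the mitochondrial partner of TXN2, lay lower in resistant U87. Its level was 219, 307.5 and 264.5 TPM in the sensitive (264 ± 44.2, SD, n = 3) and 163, 175.5 and 180 TPM in the resistant U87 libraries (173 ± 8.81, SD, n = 3), which did not overlap, with a log2 fold change of -0.60 (SE 0.13). In U118 the sensitive libraries were at 193.5, 156 and 138 TPM (163 ± 28.1, SD, n = 3) and the resistant ones at 228.5, 61.9 and 75.8 TPM (122 ± 92.4, SD, n = 3). Single libraries move that comparison. With all 3 the groups overlapped and the log2 fold change was -0.65 (SE 0.44). Without resistant replicate 1 it was -1.22 and the gene was called lower, giving 3 members lower in U118. That refit called 5627 of all 14658 tested genes lower, so the count of members does not stand out. Without resistant replicate 2 the log2 fold change of PRDX3 was -0.29.

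PRDX4 and PRDX6 differed little in TPM as deposited. Under median-ratio scaling the log2 fold change of PRDX4 was 0.15 in U87 and 0.77 in U118. That of PRDX6 was 0.51 and 0.93, and these scaled values were short of a call. PRDX4, the peroxiredoxin of the endoplasmic reticulum, was at 154 ± 34.8 TPM in sensitive and 141 ± 13.04 in resistant U87, and at 176 ± 53.9 and 197 ± 14.8 TPM in U118 (SD, n = 3), with overlap in both lines. Its libraries ran from 117 to 222 TPM over the 12. The log2 fold change was -0.11 in U87 and 0.21 in U118, and its sign changed without sensitive replicate 1 in U87 (0.07) and without sensitive replicate 3 in U118 (-0.06). PRDX6, which has 1 reactive cysteine and is recharged mainly through glutathione, was at 210, 188 and 188 TPM in sensitive and 227.5, 226 and 245 TPM in resistant U87. All 3 resistant U87 libraries were higher, but the difference was small, a log2 fold change of 0.25 (SE 0.07). In U118 PRDX6 was at 202 ± 36.5 and 267 ± 90.8 TPM (SD, n = 3), with overlap and a log2 fold change of 0.37 (SE 0.28), which was 0.11 without resistant replicate 1, 0.21 without sensitive replicate 3 and 0.56 without resistant replicate 2.

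Set side by side, the shares of PRDX2, PRDX5 and PRDX6 in the peroxiredoxin mRNA differed in both lines, and the sum of this mRNA differed without overlap in U87 only. The 6 genes summed to 2196 ± 130 TPM in sensitive and 1908 ± 71.4 in resistant U87, and to 1788 ± 389 and 1900 ± 490 TPM in U118 (SD, n = 3), without overlap in U87 and with overlap in U118. PRDX2 held 1.78% ± 0.184 of this sum in sensitive and 0.129% ± 0.0169 in resistant U87, and 13.1% ± 2.82 and 0.207% ± 0.0719 in U118. The share of PRDX5 was 32.9% ± 3.30 in sensitive and 38.9% ± 1.64 in resistant U87, without overlap, and 18.8% ± 3.53 and 32.8% ± 6.72 in U118, also without overlap. In sensitive U118 PRDX2 held the fourth rank among the 10 members by mean TPM, and its libraries overlapped those of PRDX5 above it and PRDX6 below it. In the other 3 groups it ranked last, with no library reaching the lowest one of SRXN1, the next above it. PRDX1, PRDX5 and TXN held the first 3 ranks in all 4 groups.

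The thioredoxins themselves moved by less than the limit of a call. TXN, the cytosolic thioredoxin, was at 420.5, 550.4 and 433 TPM in sensitive and 390.5, 408 and 405.5 TPM in resistant U87, which did not overlap, with a log2 fold change of -0.21 (SE 0.11), or -0.09 without sensitive replicate 2. In U118 it was at 696, 668 and 539 TPM and at 596, 350.2 and 374 TPM, with overlap through resistant replicate 1. The log2 fold change there was -0.56 (SE 0.26), or -0.80 without that library. Under median-ratio scaling the log2 fold change of TXN was 0.05 in U87 and 0.0008 in U118. TXN2, the mitochondrial thioredoxin, was at 100.2, 103 and 104 TPM in sensitive and 125, 116 and 105 TPM in resistant U87. In U118 it was at 113.5, 122 and 109 TPM and at 92.1, 99.6 and 91.8 TPM. TXN2 was thus slightly higher in resistant U87 (log2 fold change 0.16, SE 0.08) and lower in resistant U118 (-0.28, SE 0.19), with no overlap in either line, but under median-ratio scaling it was 0.42 and 0.28, positive in both. TXN2P1, a TXN2 pseudogene, lay between 3.13 and 4.74 TPM in U87, between 0 and 0.187 TPM in sensitive U118 and between 7.99 and 14.1 TPM in resistant U118, and it may share reads with TXN2.

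TXNRD1, the cytosolic thioredoxin reductase, varied widely within sensitive U87 and resistant U118. It was at 62.2, 164 and 152 TPM in sensitive (126 ± 55.4, SD, n = 3) and 93.2, 89.2 and 68.7 TPM in resistant U87 (83.7 ± 13.2, SD, n = 3), which overlapped, with a log2 fold change of -0.47 (SE 0.36) that was -0.92 without sensitive replicate 1, -0.23 without sensitive replicate 2 and -0.28 without sensitive replicate 3. In U118 it was at 141, 154 and 121 TPM in the sensitive (139 ± 16.9, SD, n = 3) and 379.9, 123 and 148 TPM in the resistant libraries (217 ± 142, SD, n = 3). The high mean of resistant U118 came from replicate 1, and without it the log2 fold change went from 0.46 to -0.03, while without resistant replicate 2 it was 0.78. The annotation has 2 sense-strand genes and 1 antisense gene that overlap TXNRD1, and the one with the highest TPM, the pseudogene RPL18AP3, lay between 12.99 and 36.2 TPM.

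**Figure D1:**
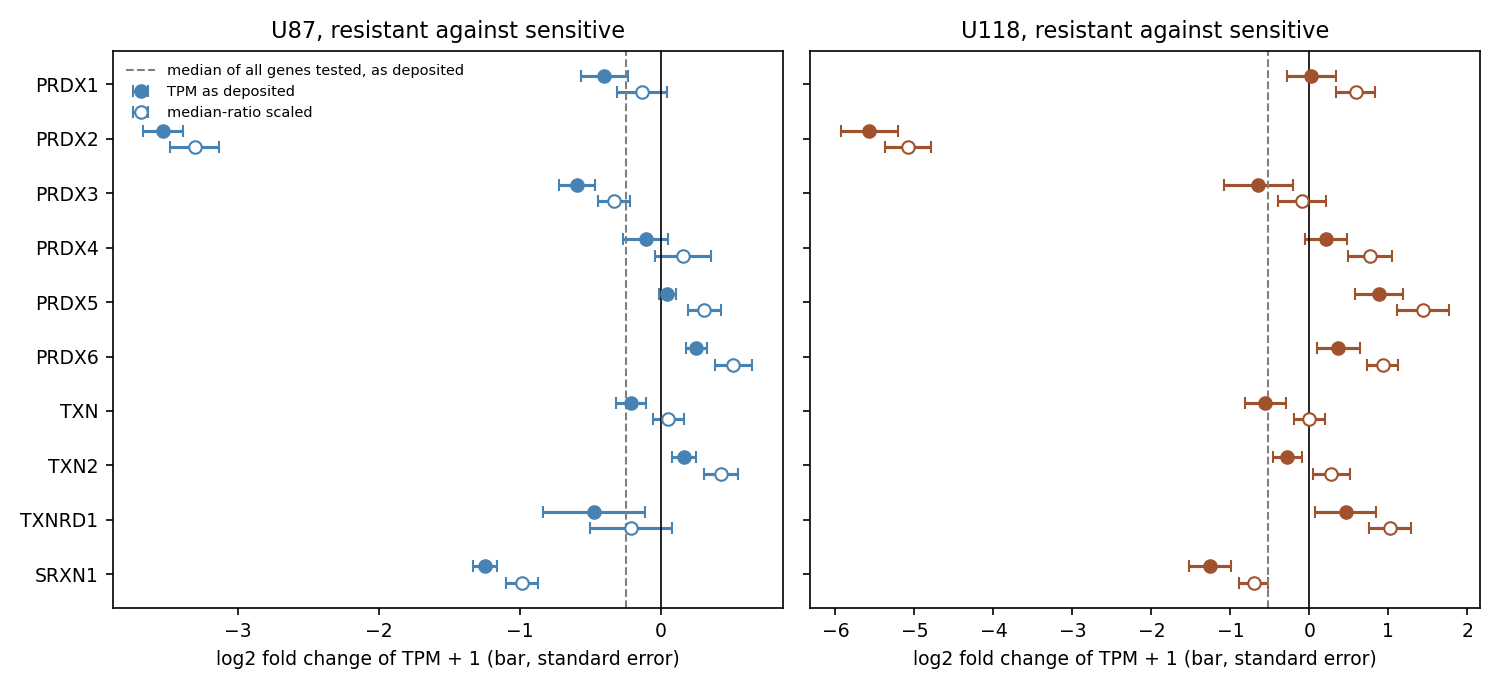
Log2 fold change of TPM + 1 (x axis, resistant against sensitive, bars of 1 standard error) of the 10 genes in U87 and U118, from TPM as deposited (filled) and after median-ratio scaling (open); the dashed line is the median of all genes tested. PRDX2 lies at -3.53 and -5.57 as deposited, SRXN1 at -1.25 and -1.26, and the other 8 genes between -0.65 and 0.88.

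In total 6 of 10 members did not overlap between the groups in U87, 2 above (PRDX6, TXN2) and 4 below (PRDX2, PRDX3, TXN, SRXN1), where 53.4% of all genes did not overlap (13.6% above and 39.8% below). In U118 it was 4 of 10, 1 above (PRDX5) and 3 below (PRDX2, TXN2, SRXN1), where the share of all genes was 58.6% (15.7% above and 42.9% below). Neither count stood clear of the background. The mean absolute log2 difference of the members between resistant U118 and another group was 0.47 for resistant U87, 0.71 for sensitive U87 and 1.03 for sensitive U118. Without PRDX2 these were 0.47, 0.45 and 0.52, so resistant U118 was then about as far from either U87 group.

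Genes whose pattern was most like that of PRDX2 were found by Pearson correlation of log2(TPM + 1) over the 12 libraries, among 16381 genes. They were STK35 (0.995), ZNF32 (0.991), CYTH3 (0.991), BACE1 (0.990) and KIFC1 (0.984). The 12 points fall into 4 groups, so such values mainly reflect the order of the group means. ZNF32, a zinc finger gene, was the closest of these 5 in size of change, with 5.67 ± 0.773 and 0.531 ± 0.284 TPM in sensitive and resistant U87 and 16.1 ± 2.40 and 0.773 ± 0.298 TPM in U118 (SD, n = 3). Among the other members the correlation was 0.929 for SRXN1, 0.785 for TXN and -0.645 for PRDX5, and between -0.399 and 0.343 for the rest.

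The surrounding pathway was read from 82 genes in 8 lists: thioredoxin-like proteins, glutaredoxins and glutathione peroxidases, superoxide dismutases and catalase, oxidative folding in the endoplasmic reticulum, clients and regulators, NADPH supply, the NRF2 axis, and the selenoprotein machinery. In U87 74 were tested, of which 6 rose and 9 fell, 20.3% against 10.8% of all genes. In U118 78 were tested, of which 6 rose and 17 fell, 29.5% against 35.3%. The median log2 fold change of the pathway genes was -0.18 in U87, against -0.24 for all genes, and -0.24 in U118, against -0.52. Under median-ratio scaling 8 were higher and 4 lower in U87, and U118 had 16 higher and 7 lower, so the balance of directions depends on the scale. Over all genes that scaling gave 663 higher and 543 lower of 13849 in U87, and 2337 and 1981 of 15347 in U118. All adjusted p-values below are from limma over all genes tested in the line. The lists were chosen with earlier results of these data known. Their counts and shares are therefore a description, and the p-values do not allow for that choice.

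Of the thioredoxin-like genes 12 of 13 were tested in each line. In U87 TXNIP, which binds and inhibits thioredoxin, rose from 33.7 ± 2.83 to 76.5 ± 2.69 TPM (log2 fold change 1.16, adjusted p = 0.000205). TXNRD2, the mitochondrial reductase, fell from 51.2 ± 1.25 to 23.8 ± 1.78 TPM (-1.08, adjusted p = 0.000267), though at -0.82 under median-ratio scaling it was short of the limit. In U118 5 of 12 fell, where 26.6% of all genes were called lower. None rose, and none had a positive change at an unadjusted p under 0.05. They were TXNRD3, TXNDC9 and the membrane-bound TMX1, TMX3 and TMX4 of the endoplasmic reticulum. TMX4 went from 43.4 ± 1.79 to 10.6 ± 4.30 TPM (-1.99, adjusted p = 0.000419) and TMX1 from 34.8 ± 5.14 to 10.1 ± 6.32 TPM (-1.82, adjusted p = 0.00311). TMX1, TMX3 and TMX4 were still called after median-ratio scaling, and TXNRD3 and TXNDC9 were not.

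The glutathione arm, which works beside thioredoxin, had 9 of 11 genes tested in each line. GLRX, the cytosolic glutaredoxin, rose in both lines. In U87 it went from 16.9 ± 2.07 to 34.9 ± 3.08 TPM (log2 fold change 1.00, adjusted p = 0.00121), and in U118 from 25.6 ± 5.61 to 93.8 ± 57.9 TPM (1.69, adjusted p = 0.00581). In U118 GLRX5, a mitochondrial glutaredoxin for iron-sulfur clusters, rose from 50.1 ± 7.23 to 104 ± 5.94 TPM (1.05, adjusted p = 0.00264), and GPX3, a secreted glutathione peroxidase, rose from 0.121 ± 0.141 to 3.68 ± 0.974 TPM (2.05, adjusted p = 7.51e-05). GPX1, the main cytosolic glutathione peroxidase, fell in U87 from 703 ± 10.2 to 357 ± 92.1 TPM (-1.01, adjusted p = 0.00365). It was not called after scaling (-0.74), nor without sensitive replicate 1, resistant replicate 1 or resistant replicate 3, where it lay between -0.9998 and -0.85. GLRX lost its call in U87 without sensitive replicate 3 (0.92) or resistant replicate 3 (0.94), and GLRX5 in U118 without sensitive replicate 3 (0.93). No gene of this list fell in U118, also at an unadjusted p under 0.05.

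SOD2, the mitochondrial superoxide dismutase that makes hydrogen peroxide from superoxide, rose in U87 from 88.5 ± 27.0 to 359 ± 13.5 TPM (log2 fold change 2.06, adjusted p = 0.000616), the largest rise of the pathway in that line. In U118 SOD2 was at 87.1 ± 14.5 and 136 ± 15.8 TPM (0.65, adjusted p = 0.0312), under the limit, and was called higher after median-ratio scaling (1.204). SOD3, the secreted enzyme, fell in U118 from 46.2 ± 5.75 to 18.1 ± 5.16 TPM (-1.33, adjusted p = 0.00273) and at -0.79 was not called after scaling. In the oxidative folding list no gene of 10 was called in U87, where 1 was higher and 4 lower at an unadjusted p under 0.05. In U118 PDIA6, a disulfide isomerase, fell from 377 ± 23.4 to 171 ± 57.0 TPM (-1.19, adjusted p = 0.00465; -0.63 and not called after scaling) and QSOX1, a secreted sulfhydryl oxidase, fell from 269 ± 66.9 to 74.6 ± 15.8 TPM (-1.82, adjusted p = 0.000511).

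Among clients and regulators SESN2, a stress-induced sestrin, rose in both lines. It went from 14.9 ± 1.09 to 36.1 ± 1.87 TPM (log2 fold change 1.22, adjusted p = 0.000267) in U87 and from 20.7 ± 4.13 to 47.7 ± 6.20 TPM (1.17, adjusted p = 0.00291) in U118. RRM2B, a p53-induced ribonucleotide reductase subunit, rose in U87 to 16.0 ± 2.08 TPM (1.32, adjusted p = 0.0281), and MSRB3, a methionine sulfoxide reductase, fell to 8.16 ± 4.70 TPM (-1.43, adjusted p = 0.0229). Both passed by a small margin. RRM2B kept its call only without sensitive replicate 2, with an adjusted p of up to 0.0933 by limma without another library, and MSRB3 lost it without sensitive replicate 3 (adjusted p = 0.0637) or resistant replicate 1 (adjusted p = 0.0659). In U118 MAP3K5 (ASK1), the stress kinase held inactive by thioredoxin, fell from 7.55 ± 0.216 to 0.976 ± 0.457 TPM (-2.14, adjusted p = 9.91e-05). APEX1, a repair and redox factor, fell from 113 ± 22.3 to 41.8 ± 14.7 TPM (-1.45, adjusted p = 0.00275). APEX1 was not called after median-ratio scaling, at -0.90.

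NADPH supply differed between the lines. In U87 TKT, a transketolase, fell from 638 ± 42.7 to 309 ± 9.19 TPM (log2 fold change -1.04, adjusted p = 0.000117) and IDH2, a mitochondrial isocitrate dehydrogenase, fell from 81.5 ± 2.02 to 28.8 ± 3.11 TPM (-1.48, adjusted p = 0.000128). TKT was short of the limit under median-ratio scaling (-0.78) and without sensitive U87 replicate 2 (-0.99), and in U118 scaling brought TKT (1.42) and TALDO1 (1.16) to a call as higher. None of the 8 tested rose in U87, also at an unadjusted p under 0.05. In U118 NNT, the mitochondrial transhydrogenase that makes NADPH, fell from 42.1 ± 3.52 to 0.0771 ± 0.115 TPM (-5.32, adjusted p = 5.24e-07). ME1, the cytosolic malic enzyme, was at 8.98 ± 0.415 TPM in sensitive U118 and listed at 0 in all 3 resistant libraries (adjusted p = 1.88e-06). In U87 NNT was at 10.1 ± 2.39 and 8.51 ± 0.539 TPM and ME1 did not pass the filter. No NADPH gene was called higher in U118, where 1 was at an unadjusted p under 0.05.

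The NRF2 axis and the selenoprotein machinery gave further calls. HMOX1, heme oxygenase, rose in U87 from 101 ± 4.67 to 235 ± 8.87 TPM (log2 fold change 1.21, adjusted p = 7.81e-05), and in U118 it was at 344 ± 68.4 and 469 ± 41.6 TPM (0.46, adjusted p = 0.111) and was called higher after median-ratio scaling (1.02). OSGIN1, an oxidative stress response gene, fell in U87 from 44.2 ± 4.22 to 14.9 ± 1.83 TPM (-1.51, adjusted p = 0.000263) and rose in U118 from 20.7 ± 1.18 to 62.3 ± 9.59 TPM (1.54, adjusted p = 0.00037). In U118 MAFF, a small MAF partner of NRF2, rose to 20.2 ± 2.55 TPM (2.03, adjusted p = 0.00072) and BACH1, a repressor at the same elements, fell to 3.72 ± 0.838 TPM (-1.43, adjusted p = 0.00133), though BACH1 was not called after scaling (-0.95). Of the selenoprotein machinery, which thioredoxin reductases need, 3 of 6 tested genes fell in U87, where 7.79% of all genes were called lower, and 3 of 7 in U118, where 26.6% were. EEFSEC, the selenocysteine elongation factor, fell in U87 from 21.1 ± 2.17 to 4.30 ± 0.668 TPM (-2.06, adjusted p = 0.000166), together with SEPHS1 and PSTK. SEPHS2, the selenophosphate synthetase, fell in U118 from 111 ± 14.7 to 43.8 ± 22.5 TPM (-1.42, adjusted p = 0.00642), together with PSTK and SEPSECS. PSTK lost its call in U87 without sensitive replicate 2 (-0.95) and in U118 without any library but resistant replicate 1 (adjusted p 0.0655 to 0.0977 by limma), and SEPSECS lost it without resistant U118 replicate 2 (-0.94). None of this list rose in either line. At an unadjusted p under 0.05 there was 1 higher in U87 and none in U118. Under median-ratio scaling EEFSEC alone was called, in U87.

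**Figure D2:**
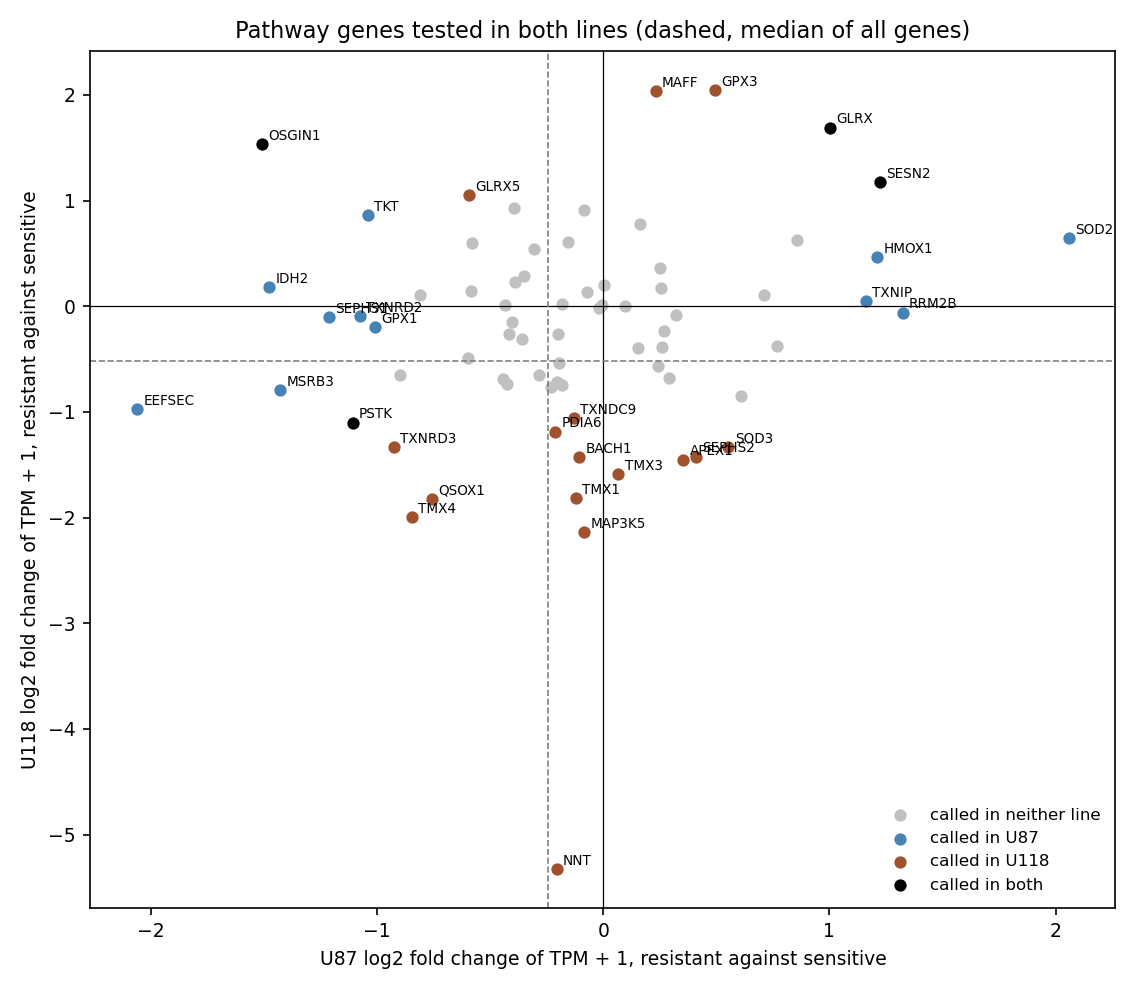
Log2 fold change of TPM + 1 (resistant against sensitive) in U87 (x axis) and U118 (y axis) of the pathway genes tested in both lines, each point a gene, coloured by the line in which it was called; dashed lines are the medians of all genes. GLRX and SESN2 are called higher in both, PSTK lower in both, and OSGIN1 lower in U87 and higher in U118.

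The difference between the lines was tested as an interaction over all 12 libraries. Of 78 pathway genes 22 had a different log2 fold change in U118 than in U87 (adjusted p below 0.05, difference of 1 or more in size), 9 higher and 13 lower, or 28.2% against 30.5% of all genes. OSGIN1 differed by 3.04 (SE 0.22, adjusted p = 3.89e-07), TKT by 1.90 (SE 0.21, adjusted p = 1.23e-05), NNT by -5.12 (SE 0.27, adjusted p = 2.16e-08) and SOD2 by -1.41 (SE 0.30, adjusted p = 0.00283). For GLRX the difference was 0.69 (SE 0.45, adjusted p = 0.251), for SESN2 -0.05 (SE 0.24, adjusted p = 0.897) and for PSTK 0.01 (SE 0.43, adjusted p = 0.993), and a p that misses the threshold does not show that the lines responded alike.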

How the data were processed

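The data are mRNA-seq of 12 libraries of 2 cell lines, made from total RNA with the VAHTS mRNA-seq V2 kit. The authors deposited TPM values per gene, 1 table per line of 58174 Ensembl identifiers; the submitters' processing notes name FastQC 0.11.2, Trimmomatic 0.36, HISAT2 2.0, bedtools 2.26.0 and GRCh38, and the quantification tool, annotation and strand setting are not given in the sources used here. Symbols were matched for 57392 identifiers, and positions are from GENCODE release 29. Groups follow the labels.

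Within each line log2(TPM + 1) was fitted with limma 3.58.1 in R 4.3.3 (eBayes with trend) over genes that reached 1 TPM in 3 or more of the 6 libraries. P-values were adjusted over all of them by Benjamini-Hochberg, and a call needed an adjusted p below 0.05 and a 2-fold difference, or 1 on the log2 scale. A fold change on this scale understates the change of low genes. The difference between lines was an interaction over 12 libraries. SDs are over 3 libraries, and the fit was tested on simulated data.

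The members and gene lists were chosen with earlier results of these data known, so members have no p-values. Named genes are the members, the called genes of each pathway list and line (the 4 with the largest fold change where more were called), the 3 nearest tested genes on either side of PRDX2, the 5 most correlated with it, and member pseudogenes. TXNDC9, PDGFRA, THY1 and genes given only for a difference between the lines were named after their values were seen. Alternatives were other pseudocounts, filters, scalings, moderation, a replicate block and leaving out each library. A called pathway gene and a marker gene count in the totals and are otherwise not reported here.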

Additional observations from a re-analysis of the deposited data

Results flagged for a closer look

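The following pathway genes had a log2 fold change in U118 that differed from that in U87 by the interaction test over the 12 libraries, given as U118 minus U87. Over all genes the resistant U118 libraries were more like U87 than like sensitive U118, as described above, and the part of this in the differences was not tested. In the thioredoxin-like and glutathione lists the difference was -1.70 for TMX1, -1.66 for TMX3, -1.15 for TMX4, 1.64 for GLRX5 and 1.55 for GPX3. For the superoxide dismutases it was -1.41 for SOD2 and -1.89 for SOD3. It was -1.06 for QSOX1, -2.05 for MAP3K5, 1.33 for MSRB2 and -1.81 for APEX1. In NADPH supply it was 1.18 for TALDO1, 1.90 for TKT, 1.65 for IDH2, -5.12 for NNT and -3.21 for ME1, of which the last rests on a group listed at 0 and so depends on the pseudocount. In the NRF2 axis it was -1.15 for NFE2L2, the gene of NRF2 itself, 1.80 for MAFF, -1.32 for BACH1 and 3.04 for OSGIN1. In the selenoprotein machinery it was -1.83 for SEPHS2 and 1.09 for EEFSEC. Under median-ratio scaling the differences of TMX4 (-0.89), QSOX1 (-0.82) and NFE2L2 (-0.92) were not called. Leaving out 1 library ended some of these calls. TMX1 was past 0.05 without sensitive U87 replicate 3 (limma adjusted p = 0.052) or resistant U118 replicate 3 (0.0518), TMX4 was at -0.99 without resistant U118 replicate 2, and QSOX1 lay between -0.99 and -0.95 without sensitive U118 replicate 1 or 2 or resistant U118 replicate 2 or 3. TALDO1 was at 0.95 without sensitive U118 replicate 3 and at 0.995 without resistant U118 replicate 1, and NFE2L2 was at -0.99 without sensitive U87 replicate 1 and at -0.98 without sensitive U118 replicate 1 (adjusted p = 0.0506).

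TXN2 had every resistant library above every sensitive one in U87, with a log2 fold change of 0.16, and below in U118, with -0.28. This difference between the lines was not tested, and after median-ratio scaling both values were positive.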

How the results depend on the processing

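PRDX2 was called lower in both lines under every alternative run. With no fold threshold 1 member was higher in U87 and 1 in U118, and of the pathway genes 14 were higher and 25 lower in U87, with 12 and 24 in U118. Over all genes 1306 were then higher and 4107 lower of 13845 in U87, with 1893 and 6068 of 15527 in U118. Under median-ratio scaling 1 member was lower in U87, and 2 were higher and 1 lower in U118. Of the pathway genes 4 were lower in U87, and 16 were higher and 7 lower in U118. Over all genes the scaled fit had 663 higher and 543 lower of 13849 in U87, and 2337 and 1981 of 15347 in U118. Without mitochondrially encoded genes 1 member was higher in U118, where 1688 of 15988 genes were. With a mean of at least 10 TPM 11 pathway genes were lower in U118, where 2152 of 8621 genes were. Leaving out 1 library at a time gave 0 members higher in U87 and 0 to 1 in U118, 2 lower in U87 and 2 to 3 in U118, pathway counts of 4 to 7 higher and 7 to 9 lower in U87 and 5 to 7 higher and 12 to 20 lower in U118, and 21 to 30 line differences, where the highest was without resistant U118 replicate 1. Over all genes these refits gave 274 to 480 higher and 826 to 1283 lower in U87, and 767 to 1353 higher and 2867 to 5627 lower in U118. Where no cause is named, the cause was not tested.

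Replicate numbers are shared between groups. The correlation of same-numbered deviations was 0.011, -0.067 and -0.04 in U87 and 0.139, 0.051 and 0.095 in U118. Every U118 library and not every U87 library correlated best with its own number. Whether the numbers pair the U118 libraries cannot be told from values this small. The main fits did not use a pairing. With a replicate block the calls over all genes went from 1497 to 1454 (U87) and from 5475 to 5581 (U118), members stayed at 2 lower in each line, pathway calls were 5 higher and 8 lower in U87 and 6 and 17 in U118, and line differences were 23. No called value of a member, pathway gene or line difference changed sign. Among 38 uncalled values of named pathway genes and PRDX2 neighbours, 15 changed sign under at least 1 refit. Depth is unknown in TPM and sets no stated limit here.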
